A study of Mus musculus with 12 samples.

Results

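Cells sorted on day 6 of reprogramming into SSEA1+ EpCAM+ Sca1- cells (d6_Eff, the efficient population) and SSEA1+ EpCAM- Sca1+ cells (d6_Ineff, the inefficient population) were compared by poly-A RNA-seq. The comparison rests on 4 of the 12 libraries of the series, 2 of d6_Eff and 2 of d6_Ineff, chosen by their labels. The other 8 libraries are 2 each of d3_Eff (day 3, SSEA1+ CD73+ Sca1-), d3_Ineff (day 3, SSEA1+ CD73- Sca1+), induced pluripotent stem cells (iPSC) and mouse embryonic fibroblasts (MEF), the starting cells. They are used to estimate the spread and to place the day 6 difference. All 12 came from the strain 129SV/Jae/C57BL6J. The 4 sorted groups were taken from cultures in ES media with dox and AA, iPSC grew in ES media and MEF in MEF media. All sorted groups were trypsinised, stained and sorted on the same surface carbohydrate, SSEA1. The labels do not name the factors or the transgene that drove reprogramming, and do not say whether the replicates were separate cultures, and p-values here describe the spread between libraries, which may be technical.

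Fibroblasts that are turned into pluripotent cells pass through a mesenchymal-to-epithelial transition, in which matrix and contractile genes are shut down and junction genes are switched on, before most of the pluripotency network is active. E-cadherin, encoded by Cdh1, holds epithelial cells together and is kept off in fibroblasts by repressors of the Snail, Zeb and Twist families. EpCAM is an epithelial adhesion molecule of embryonic stem cells, Sca1 is a surface protein of many mesenchymal and progenitor cells, and SSEA1 is a fucosylated carbohydrate of mouse pluripotent cells.

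The 4 day 6 libraries held 20730460 and 16255091 gene counts in d6_Eff, against 16081124 and 22763548 in d6_Ineff. Across genes, the log2 values, in CPM (counts per 1e+06 counts), of the replicates correlated with r = 0.968 in d6_Eff and 0.973 in d6_Ineff. One library stood apart on day 6: reads outside genes made up 24.1% of uniquely placed reads in d6_Eff replicate 2, against 8.78% in d6_Eff replicate 1 and 9.47% to 11.7% in d6_Ineff. The same measure was 47.2% in MEF replicate 2, which enters the estimate of the spread. The effect of leaving these libraries out on the counts of called genes is therefore given.

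The genes of the gate followed the labels, which checks the sort and is not a finding. Epcam, which encodes EpCAM, had 947 and 994 CPM in d6_Eff, against 27.7 and 27.8 CPM in d6_Ineff. Ly6a, which encodes Sca1, had 16.2 and 8.52 CPM in d6_Eff, against 519.8 and 551 CPM in d6_Ineff. Both pairs of libraries lay far apart, with a log2 fold change of 5.13 ± 0.32 (SE) for Epcam and -5.43 ± 0.36 for Ly6a. Nt5e, which encodes CD73, the day 3 gate protein, was not used on day 6 and had 50.7 and 46.0 CPM in d6_Eff, against 21.1 and 36.9 CPM in d6_Ineff. Its log2 fold change of 0.73 ± 0.32 was not called (edgeR adjusted p = 0.151), although the fit without MEF replicate 1 called it (adjusted p = 0.0434), as did the fit of the 4 day 6 libraries alone (adjusted p = 0.0142). SSEA1 is made by fucosyltransferases. Fut9, which makes SSEA1 in mouse embryonic cells, had 40.4 and 33.1 CPM in d6_Eff, against 15.7 and 19.4 CPM in d6_Ineff, and was higher in d6_Eff by a log2 fold change of 1.06 ± 0.21 (adjusted p = 0.00617), a call that ended without d6_Ineff replicate 1 or d6_Eff replicate 1 (highest adjusted p = 0.0681). Fut4 had 4.28 and 2.82 CPM in d6_Eff, against 4.98 and 6.46 CPM in d6_Ineff, and was not called (adjusted p = 0.270). Of the other SSEA1 synthesis genes, Fut10 had 4.32 and 4.35 CPM in d6_Eff, against 13.8 and 13.6 CPM in d6_Ineff, and fell by a log2 fold change of -1.66 (adjusted p = 0.00860). B4galt1, a galactosyltransferase gene, had 38.8 and 37.7 CPM in d6_Eff, against 68.8 and 63.5 CPM in d6_Ineff, and fell by -0.79 (adjusted p = 0.00922). Both calls ended without any 1 of the day 6 libraries.

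The 4 factors of the standard reprogramming cocktail were not called. Pou5f1, which encodes Oct4, had 72.3 and 104 CPM in d6_Eff, against 70.0 and 70.4 CPM in d6_Ineff, and Sox2 had 244 and 219 CPM in d6_Eff, against 170.3 and 184 CPM in d6_Ineff. Klf4 had 223 and 255 CPM in d6_Eff, against 182 and 234 CPM in d6_Ineff, and Myc had 240.4 and 238 CPM in d6_Eff, against 257 and 261 CPM in d6_Ineff. The Klf4 libraries overlapped, and the other genes separated by little. The log2 fold changes were 0.33 ± 0.32 for Pou5f1, 0.39 ± 0.27 for Sox2, 0.20 ± 0.38 for Klf4 and -0.12 ± 0.22 for Myc, with edgeR adjusted p of 0.556, 0.387, 0.792 and 0.796 in that order. Sox2 was called only in the fit of the 4 day 6 libraries alone (adjusted p = 0.0101). Gene counts do not separate a transgene transcript from the cell's own, and Pou5f1 overlaps an antisense gene that the counting cannot separate from it.

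**Figure D1:**
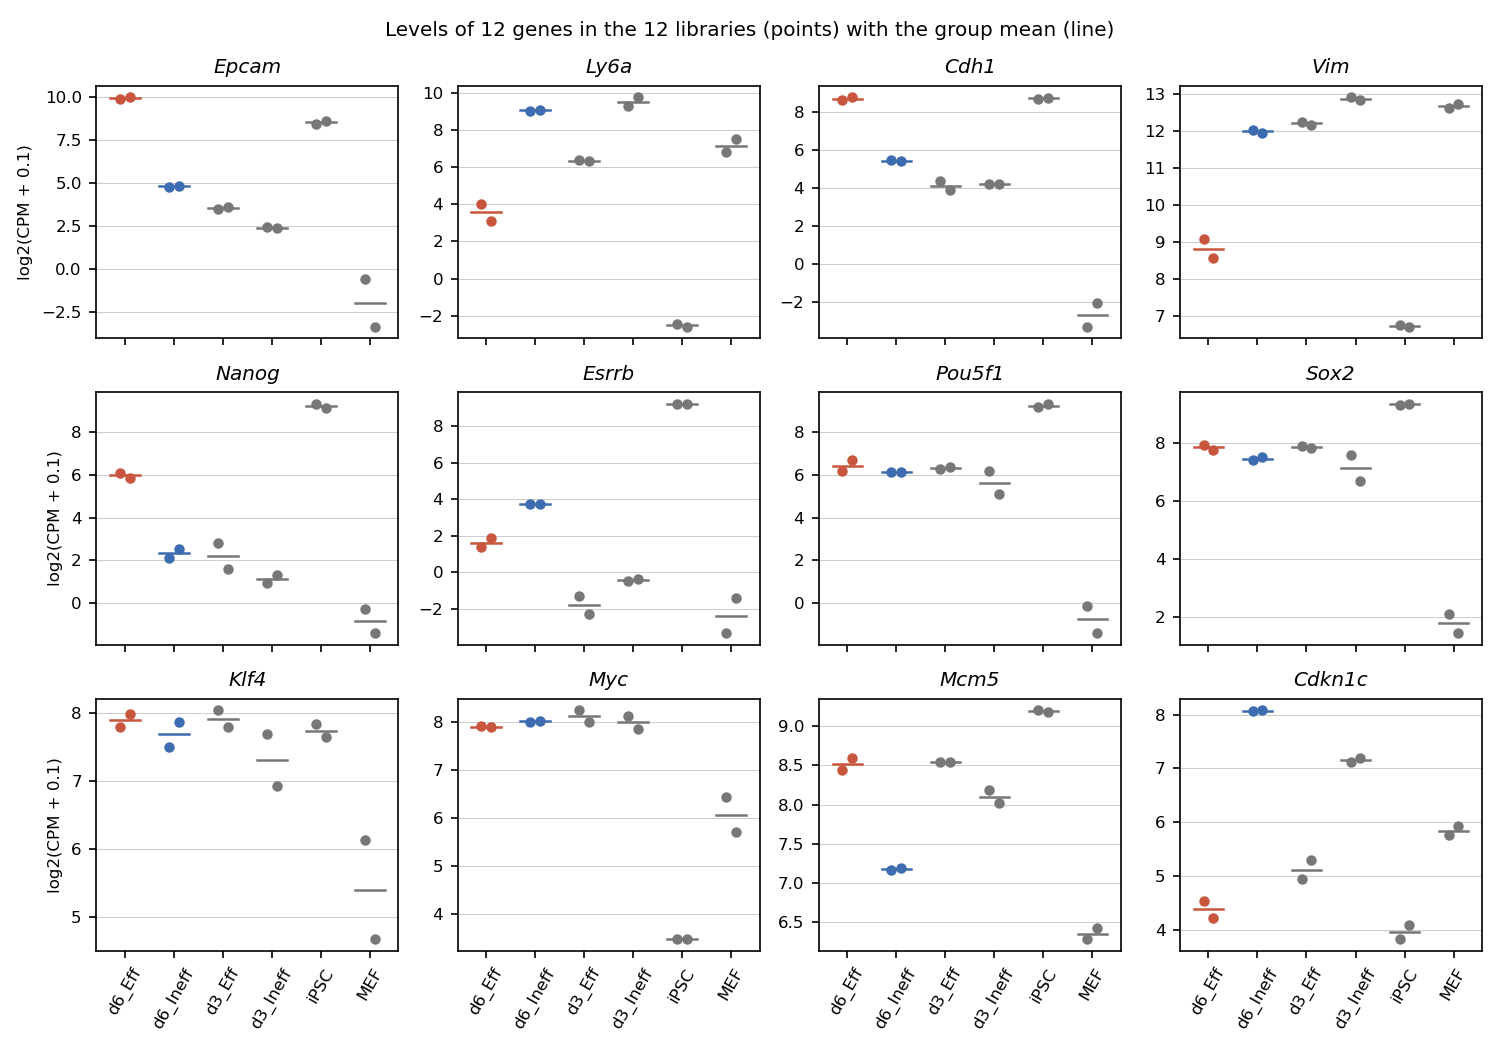
Levels of 12 genes, as log2(CPM + 0.1), in the 12 libraries (points) with the mean of each group (lines), d6_Eff in red, d6_Ineff in blue and the other 4 groups in grey. Epcam and Cdh1 are high and Ly6a, Vim and Cdkn1c low in d6_Eff, while Pou5f1, Sox2, Klf4 and Myc lie close together in both day 6 populations.

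Of 16240 genes tested, 873 (5.38%) were higher and 1502 (9.25%) lower in d6_Eff than in d6_Ineff at an edgeR adjusted p under 0.05, which together is 14.6% of all genes. Of these, 461 higher genes (2.84% of all genes tested) and 1256 lower genes (7.73% of all genes tested) changed at least 2-fold, and 210 called genes changed by at least 16-fold. The median log2 fold change over all genes tested was 0.000. Leaving out d6_Eff replicate 2 lowered the counts in both directions. Only a minority of the 2375 calls of the full fit remained, the smallest share for any library left out. Leaving out any other day 6 library also lowered both counts. Each of these fits leaves 1 library in a group, and the part of d6_Eff replicate 2 in the drop was not tested. Leaving out MEF replicate 2, which belongs to neither population, raised both counts and kept nearly all of the 2375 calls. Leaving out MEF replicate 1 raised both counts as well, and the cause of the rise was not tested. With d6_Eff replicate 2 and MEF replicate 2 left out together, both counts were above those of the full fit.

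**Figure D2:**
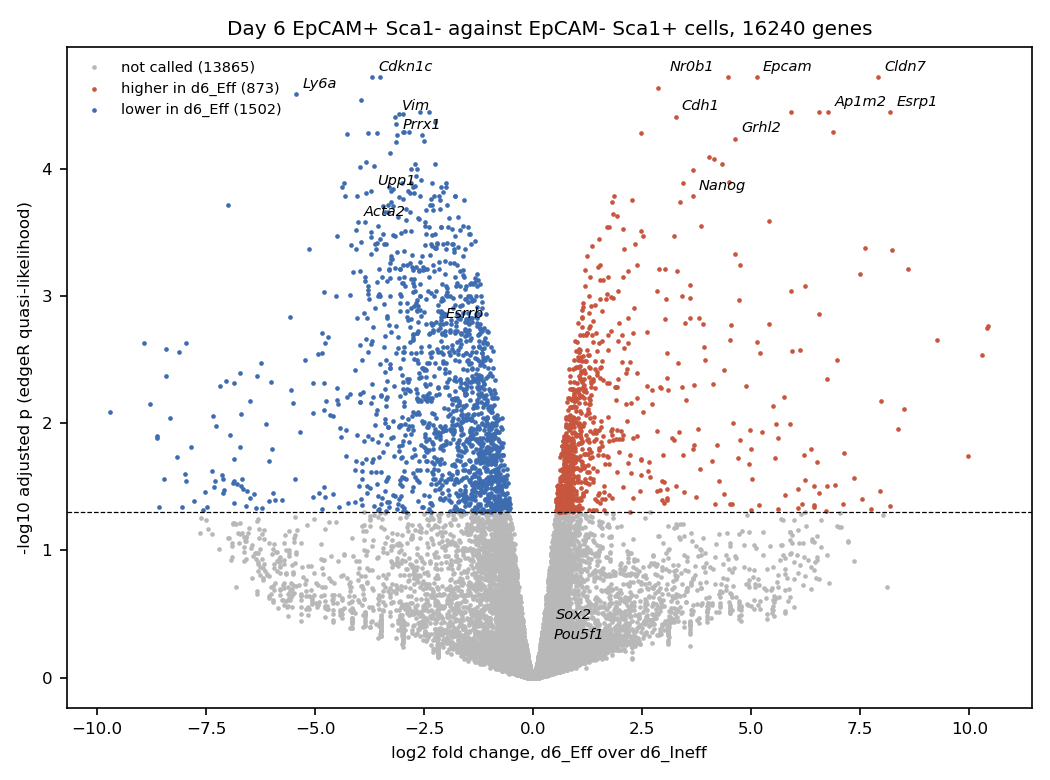
Log2 fold change of d6_Eff over d6_Ineff (x axis) against -log10 adjusted p (y axis) for 16240 genes, with the 873 higher genes in red, the 1502 lower genes in blue and the threshold as a dashed line. The lower genes outnumber the higher ones, while Cldn7, Esrp1 and Ap1m2 combine large changes with small adjusted p.

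The largest gains in d6_Eff were genes that d6_Ineff libraries hardly contained. Bnipl had 5.66 and 12.0 CPM in d6_Eff and no counts in d6_Ineff, at least 125-fold higher when set against a floor of 3 counts over the group (adjusted p = 0.00172). By the same bound, the membrane protein gene Tmem54 was at least 123-fold higher, with 10.6 and 6.87 CPM in d6_Eff (adjusted p = 0.00178). Prom2, a relative of prominin 1 found on protrusions of epithelial membranes, was at least 114-fold higher, with 7.04 and 9.10 CPM in d6_Eff (adjusted p = 0.00290). Ceacam19 was at least 90.5-fold higher, with 6.37 and 6.46 CPM in d6_Eff (adjusted p = 0.0180), but its call ended without any 1 of the day 6 libraries. Tmem54 overlaps Hpca on the opposite strand, and the deposited counting did not use strand, so reads of the pair cannot be told apart. The same limit touches other genes given here, among them Crb3, Dsp, Krt8, Ezh2, Tgfb2, Tgfb3, Tnc, Cdkn1c, Ccnd2, H19 and Igf2.

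The same group of large gains held metabolic and signalling genes that were detected in d6_Ineff at a trace. Gpx2, an epithelial glutathione peroxidase, had 37.1 and 36.1 CPM in d6_Eff, against 0 and 0.319 CPM in d6_Ineff (log2 fold change 7.60 ± 0.78, adjusted p = 4.16e-04). Grb7, an adaptor of receptor tyrosine kinases, had 41.0 and 48.6 CPM in d6_Eff, against 0.348 and 0.399 CPM in d6_Ineff (log2 fold change 6.87 ± 0.44, adjusted p = 5.13e-05). Rhox6, an X-linked homeobox gene of placenta and germ cells, had 8.46 and 15.8 CPM in d6_Eff, against 0 and 0.160 CPM in d6_Ineff (log2 fold change 6.97 ± 1.01, adjusted p = 0.00316). The genes of this group were chosen so that every d6_Eff library lay above every d6_Ineff library, which holds for 30.6% of all genes tested. B4galnt3, a glycosyltransferase gene, had 9.58 and 8.57 CPM in d6_Eff, against 0.0579 and 0 CPM in d6_Ineff (adjusted p = 4.31e-04). Plch2, a phospholipase C gene, had 7.26 and 7.52 CPM in d6_Eff, against 0 and 0.0399 CPM in d6_Ineff (adjusted p = 0.00668), and was not called without either d6_Ineff library. No fold is given for these 2 genes, which d6_Ineff held as a single read, and both overlap a gene on the opposite strand.

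Junction genes were the clearest epithelial group. All gene lists here were chosen with earlier results of these data known, which can favour high counts, so list counts are a description. The sort itself used an epithelial protein, EpCAM. Of 30 genes of epithelial junctions, 17 rose in d6_Eff, 2 fell and 11 were not called, with a median log2 fold change of 2.03, against 5.38% higher genes and a median of 0.000 over all genes. The count of higher members was 10 to 12 without any 1 day 6 library. Cdh1 had 394 and 431 CPM in d6_Eff, against 43.4 and 42.6 CPM in d6_Ineff (log2 fold change 3.26 ± 0.25, adjusted p = 3.89e-05). The d6_Ineff cells thus carried Cdh1 transcripts well above the 0.0698 CPM of MEF, and the d6_Eff libraries stood at the 418 CPM of iPSC.

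Tight junction strands are built from claudins and occludin. Cldn7 had 168 and 175 CPM in d6_Eff, against 0.985 and 0.479 CPM in d6_Ineff (log2 fold change 7.91 ± 0.48, adjusted p = 1.90e-05). Cldn6, a claudin of early embryonic epithelium, had 123 and 119.6 CPM in d6_Eff, against 1.27 and 2.63 CPM in d6_Ineff (log2 fold change 5.92 ± 0.43, adjusted p = 3.57e-05). Both claudins separated the populations completely and stood above their iPSC means of 51.6 and 73.7 CPM. Cldn4 and Cldn3 rose by log2 fold changes of 3.43 and 2.14, occludin (Ocln) by 5.25, Marveld2 by 3.90 and the scaffold gene Tjp3 by 3.07. The apical polarity genes Crb3, Pard6b and Llgl2 rose by 4.74, 1.29 and 1.36.

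Desmosome genes moved in part. Dsg2, a desmosomal cadherin, rose by a log2 fold change of 4.88, the plakophilins Pkp1 and Pkp3 by 3.80 and 3.83, desmoplakin (Dsp) by 1.93, and the plaque proteins Ppl and Evpl by 5.00 and 3.28. Jup, Pkp2 and Dsc2 were not called, with log2 fold changes of -0.50, 0.12 and 0.35. The 2 junction genes that fell were the connexin gene Gjb5 and Tjp1, which encodes the scaffold ZO-1. Gjb5 had no counts in d6_Eff and 0.290 and 0.558 CPM in d6_Ineff. Its call ended in the fit of the 4 day 6 libraries alone and without d6_Ineff replicate 2 or either d6_Eff library. Tjp1 had 114 and 101 CPM in d6_Eff, against 246 and 293 CPM in d6_Ineff (log2 fold change -1.33 ± 0.36, adjusted p = 0.0291), a call that ended without any 1 of the day 6 libraries.

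Regulators of epithelial identity and membrane-anchored proteases rose in 18 of 27 cases, with no member lower and a median log2 fold change of 1.59. Higher genes made up 5.38% of all genes tested. Esrp1, a splicing factor that sets epithelial exon choice, had 114 and 129 CPM in d6_Eff, against 0.579 and 0.279 CPM in d6_Ineff (log2 fold change 8.19 ± 0.60, adjusted p = 3.57e-05). Ap1m2, the epithelial subunit of a clathrin adaptor that sorts cargo to the basolateral membrane, had 118 and 133 CPM in d6_Eff, against 1.04 and 1.24 CPM in d6_Ineff (log2 fold change 6.77 ± 0.49, adjusted p = 3.57e-05). Rab25, an epithelial recycling GTPase, had 28.1 and 27.7 CPM in d6_Eff, against 0.348 and 0 CPM in d6_Ineff (log2 fold change 7.48 ± 0.92, adjusted p = 6.75e-04). These 3 genes were near absent from d6_Ineff and were above their iPSC means of 43.1, 64.3 and 7.92 CPM in every d6_Eff library.

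Transcription factors of epithelium rose as well. Grhl2, which activates Cdh1 and claudin genes, had 53.01 and 62.0 CPM in d6_Eff, against 2.14 and 2.47 CPM in d6_Ineff (log2 fold change 4.63 ± 0.39, adjusted p = 5.79e-05). Grhl1, Ovol2 and Elf3 rose by log2 fold changes of 3.68, 3.37 and 1.26, and the simple epithelial keratins Krt8 and Krt18 by 3.66 and 2.37. The protease matriptase (St14) and its inhibitors Spint1 and Spint2 rose by 1.58, 0.98 and 1.59. Ehf, Klf5, Grhl3 and Krt19 were among the 9 not called. Without any 1 day 6 library, 11 or 12 members rose. Esrp1 and Grhl2 overlap genes on the opposite strand, whereas Cdh1, Cldn6, Cldn7, Ap1m2 and Rab25 do not.

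The 250 bases before the annotated start are shown for Epcam, the gate gene, and for 3 called genes of the epithelial lists. E-boxes are short motifs that repressors such as those of the Snail and Zeb families can bind. Capitals mark the E-box CACCTG on either strand, which reads CAGGTG when it lies on the other one. The sequences are from RefSeq on GRCm38.p6, run 5′ to 3′ in the sense of the gene, and cover chr17:87635729-87635978 for Epcam (plus strand), chr9:21312334-21312583 for Ap1m2 (minus strand), chr3:88548280-88548529 for Rab25 (minus strand) and chr17:57061951-57062200 for Crb3 (plus strand).
Epcam: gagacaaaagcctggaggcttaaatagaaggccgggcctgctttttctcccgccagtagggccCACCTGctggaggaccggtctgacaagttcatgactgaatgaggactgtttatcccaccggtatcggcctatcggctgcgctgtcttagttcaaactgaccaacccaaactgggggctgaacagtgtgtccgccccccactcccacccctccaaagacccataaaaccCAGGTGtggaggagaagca
Ap1m2: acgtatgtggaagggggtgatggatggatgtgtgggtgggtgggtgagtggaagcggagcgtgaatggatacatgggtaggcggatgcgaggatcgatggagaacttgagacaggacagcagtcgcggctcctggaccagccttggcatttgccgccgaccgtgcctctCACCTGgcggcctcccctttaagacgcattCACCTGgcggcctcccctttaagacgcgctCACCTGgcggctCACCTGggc
Rab25: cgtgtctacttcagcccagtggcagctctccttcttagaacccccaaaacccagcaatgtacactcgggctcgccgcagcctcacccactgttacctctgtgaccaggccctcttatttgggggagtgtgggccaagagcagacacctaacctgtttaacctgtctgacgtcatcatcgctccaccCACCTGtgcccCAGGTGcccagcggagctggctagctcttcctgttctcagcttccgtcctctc
Crb3: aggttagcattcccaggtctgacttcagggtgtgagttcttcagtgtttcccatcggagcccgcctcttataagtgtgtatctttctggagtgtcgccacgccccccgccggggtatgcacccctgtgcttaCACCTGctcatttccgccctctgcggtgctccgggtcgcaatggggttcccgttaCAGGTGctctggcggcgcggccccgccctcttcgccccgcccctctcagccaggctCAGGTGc
Counted back from the annotated start, the motif begins at bases -187 and -19 in Epcam, at -81, -51, -21 and -9 in Ap1m2, at -64 and -53 in Rab25, and at -118, -63 and -7 in Crb3. Over windows of 300 bases, 250 before the start and 50 after it, the motif stood in 18 (85.7%) of the 21 called epithelial genes with a RefSeq window, out of 35 such genes. Of the epithelial list genes that were not higher, 5 of 10 (50%) had it, of 32 mesenchymal and matrix genes lower in d6_Eff 5 (15.6%), and of 27025 genes with a window 6098 (22.6%). Epcam is not in these counts. The 4 promoters shown were picked because each holds at least 2 matches, whereas the windows of Grhl1, Ovol2 and Spint1 held none and those of Cldn3, Dsp and Marveld2 only after the start. A match describes these letters only, and no binding was measured.

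Mesenchymal transcription factors moved the other way. Of 45 tested, 18 fell in d6_Eff, against 9.25% of all genes, none rose and 27 were not called, with a median log2 fold change of -1.29. Zeb1 and Tcf21 had too few counts to be tested. The number that fell was 12 without d6_Eff replicate 1 and 7 without d6_Eff replicate 2. Prrx1, a homeobox factor of limb and facial mesenchyme, had 16.9 and 11.5 CPM in d6_Eff, against 111 and 138 CPM in d6_Ineff (log2 fold change -3.13 ± 0.26, adjusted p = 5.43e-05). Twist1, a repressor of Cdh1, had 2.98 and 2.70 CPM in d6_Eff, against 15.01 and 16.9 CPM in d6_Ineff (log2 fold change -2.48 ± 0.29, adjusted p = 3.94e-04). Snai1 and Snai2, the Snail family repressors, fell by log2 fold changes of -2.35 and -4.44, and Zeb2 was not called at -2.62 (adjusted p = 0.0697). Both Snail genes had already low levels in d6_Ineff, at means of 6.88 and 2.85 CPM, against 58.3 and 70.2 CPM in MEF. Ebf1, Meox2, Runx1 and Runx2 fell by -3.39, -3.36, -2.97 and -3.91, while Srf, Nfib, Tead1 and Tead2 were not called.

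Fibroblast matrix and surface genes formed the largest group of lower genes among the lists. Of 45, 31 fell in d6_Eff and none rose, with a median log2 fold change of -2.27, against 9.25% lower genes in all. Fewer of them fell when any 1 of the day 6 libraries was left out. Vim, which encodes vimentin, the main filament protein of mesenchyme, had 540.4 and 376 CPM in d6_Eff, against 4222 and 3980.1 CPM in d6_Ineff (log2 fold change -3.16 ± 0.24, adjusted p = 3.89e-05). Sparc, a collagen-binding matrix glycoprotein, had 354 and 312 CPM in d6_Eff, against 1531 and 1669 CPM in d6_Ineff (log2 fold change -2.27 ± 0.23, adjusted p = 1.64e-04). Timp2, a metalloprotease inhibitor, had 33.3 and 27.9 CPM in d6_Eff, against 159 and 161 CPM in d6_Ineff (log2 fold change -2.38 ± 0.27, adjusted p = 2.87e-04). No library of either population crossed over in these 3 genes. Fibrillar collagens were lower in both day 6 populations than in MEF: Col1a1 averaged 43.2 CPM in d6_Eff, 235 CPM in d6_Ineff and 11846 CPM in MEF. Cdh2, the mesenchymal counterpart of E-cadherin, fell by a log2 fold change of -4.52, Thy1, a fibroblast surface protein, by -3.28 and Tnc by -3.96. Fn1, Dcn and Lum were not called, at -0.83, -0.64 and -0.81. In bulk samples, fewer cells of a type and less RNA per cell cannot be told apart.

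Contractile genes and targets of TGF-beta and YAP were lower too. Of 22 TGF-beta and YAP targets 15 fell and none rose (median -1.79), and of 14 smooth muscle and contractile genes 10 fell and 1 rose (median -2.02), against 9.25% lower genes in all. Without any 1 day 6 library 9 to 12 of the TGF-beta and YAP targets fell, 9 of them without d6_Eff replicate 2 or d6_Ineff replicate 2. Tgfbr2, a receptor for TGF-beta, had 29.4 and 29.2 CPM in d6_Eff, against 150.2 and 154 CPM in d6_Ineff (log2 fold change -2.37 ± 0.25, adjusted p = 1.91e-04). The ligand genes Tgfb2 and Tgfb3 fell by -2.88 and -3.79, and Tgfb1 was not called at 0.29. Smad7, a feedback inhibitor of the pathway, fell by -2.73, and Axl, a receptor tyrosine kinase gene induced by YAP, by -2.25. Acta2, smooth muscle actin, had 68.2 and 29.8 CPM in d6_Eff, against 813 and 779 CPM in d6_Ineff (log2 fold change -4.02 ± 0.44, adjusted p = 2.62e-04), and the fit of the 4 day 6 libraries alone did not call it (adjusted p = 0.0511). The contractile gene that rose was desmin (Des), with 11.9 and 10.5 CPM in d6_Eff, against 4.46 and 2.83 CPM in d6_Ineff, and its call ended without any 1 of the day 6 libraries.

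Genes of the BMP pathway fell in 10 of 15 cases with none higher (median -1.39), against 9.25% lower genes in all. Fewer of them fell when any 1 of the day 6 libraries was left out. The fewest fell without d6_Eff replicate 2, near the share of all genes. Id3, an inhibitor of basic helix-loop-helix factors that BMP induces, had 147 and 137 CPM in d6_Eff, against 373 and 371 CPM in d6_Ineff (log2 fold change -1.39 ± 0.25, adjusted p = 0.00366). The call of Id3 ended without d6_Eff replicate 2 (adjusted p = 0.0554). Atoh8, a basic helix-loop-helix factor, had 0.846 and 0.470 CPM in d6_Eff, against 24.97 and 23.1 CPM in d6_Ineff (log2 fold change -5.15 ± 0.62, adjusted p = 4.26e-04). Bmp2, Bmp4, Gata2 and Smad6 fell by log2 fold changes of -3.56, -1.997, -2.998 and -1.41.

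The largest losses in d6_Eff mixed structural and signalling genes. Rgs7bp, a binding partner of regulators of G protein signalling, had 0.134 and 0 CPM in d6_Eff, against 6.55 and 6.22 CPM in d6_Ineff (adjusted p = 0.00423). Lmod1, a smooth muscle actin nucleator, had 0.267 and 0 CPM in d6_Eff, against 6.72 and 7.98 CPM in d6_Ineff (log2 fold change -5.57 ± 0.84, adjusted p = 0.00146). Aqp4, a water channel of glia and other tissues, had 0.356 and 0.764 CPM in d6_Eff, against 13.2 and 15.6 CPM in d6_Ineff (log2 fold change -4.70 ± 0.68, adjusted p = 0.00211). Rgs7bp and Aqp4 had no counts in MEF, and Aqp4 none in iPSC, so both genes were on in d6_Ineff and off or near off at each end of the course. The sarcoglycan gene Sgcd, the complement protease gene Masp1, the guanine exchange factor gene Rin3, the laminin gene Lama3, the metalloprotease gene Pappa and the sulfotransferase gene Sult1a1 fell by log2 fold changes of -5.35, -5.24, -5.04, -4.92, -4.85 and -4.80. The calls of Masp1 and Pappa ended in the fit of the 4 day 6 libraries alone, that of Sgcd without d6_Ineff replicate 1 or d6_Eff replicate 2, and that of Sult1a1 without d6_Eff replicate 1.

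**Figure D3:**
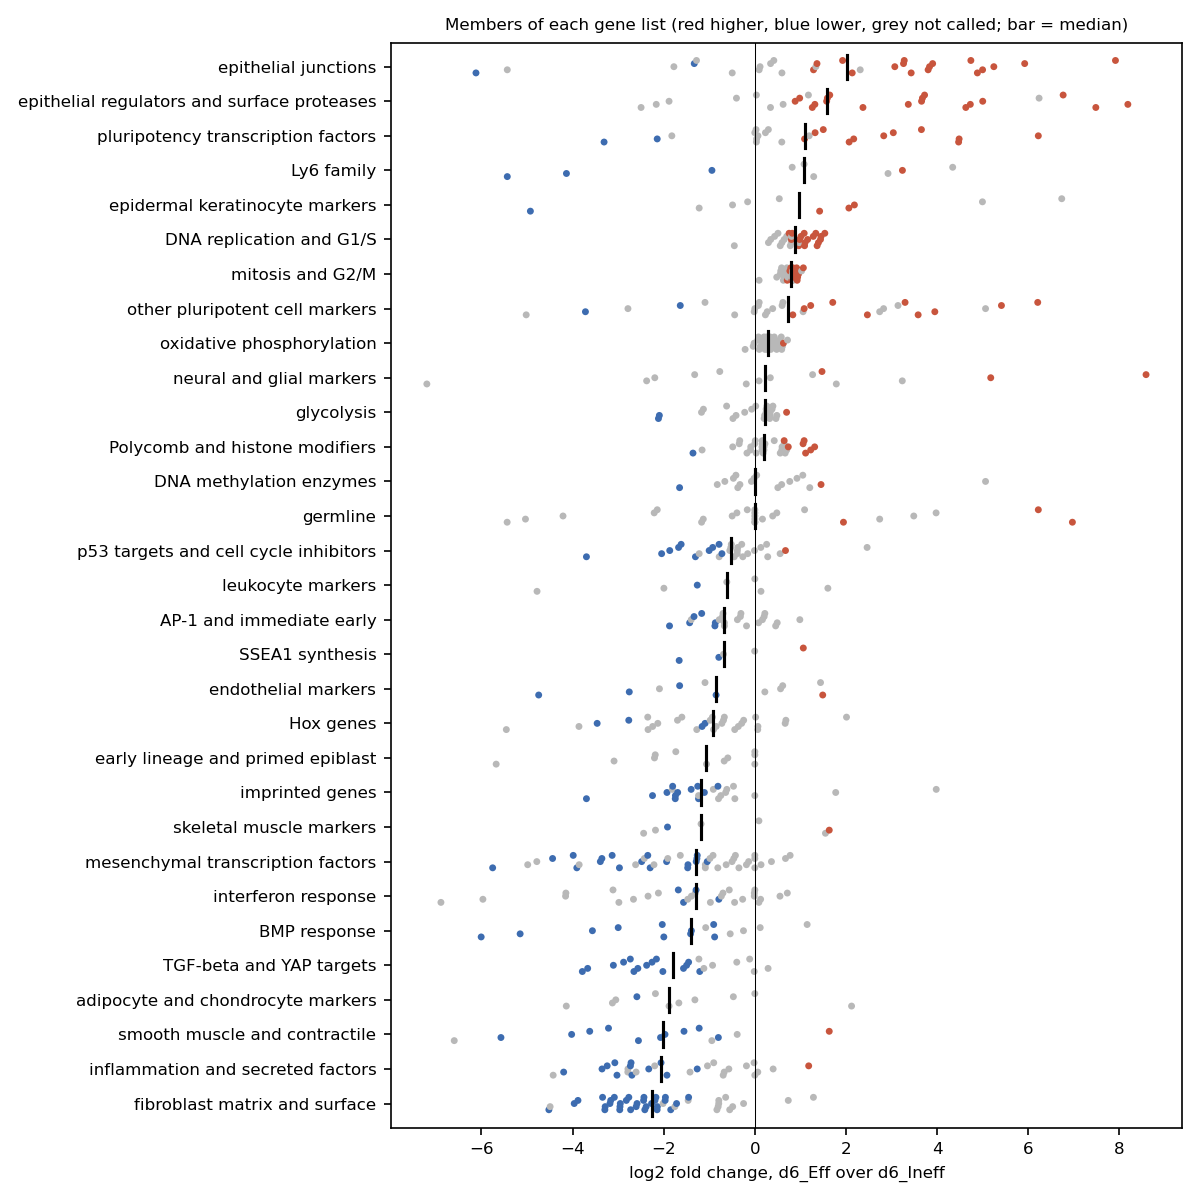
Log2 fold change of d6_Eff over d6_Ineff (x axis) for each tested member of the gene lists (rows, ordered by their median, black bar), with members higher in d6_Eff in red, lower in blue and not called in grey. The epithelial lists lie furthest right and the fibroblast matrix list furthest left.

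Pluripotency genes were split. Of 23 pluripotency transcription factors tested, 11 rose in d6_Eff, 2 fell and 10 were not called (median 1.09). Of 30 other pluripotent cell markers 10 rose and 2 fell (median 0.73). Over all genes tested, 5.38% were higher and 9.25% lower. Nanog had 67.5 and 58.4 CPM in d6_Eff, against 4.23 and 5.70 CPM in d6_Ineff (log2 fold change 3.66 ± 0.37, adjusted p = 1.64e-04). The iPSC mean of Nanog was 596 CPM, well above either population. The nuclear receptor gene Nr0b1 had 45.7 and 47.6 CPM in d6_Eff, against 2.03 and 2.15 CPM in d6_Ineff (log2 fold change 4.47 ± 0.23, adjusted p = 1.90e-05). Nr5a2, a nuclear receptor that can stand in for Oct4 in reprogramming, had 55.1 and 53.4 CPM in d6_Eff, against 3.42 and 1.52 CPM in d6_Ineff (log2 fold change 4.48 ± 0.39, adjusted p = 1.28e-04). Both d6_Eff libraries of Nr5a2 lay above the iPSC mean of 40.2 CPM. Sall4, Zscan10, Utf1 and Mycn rose by 3.04, 2.83, 2.17 and 2.07.

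Several of the markers that rose were still scarce. Tdgf1, a coreceptor of Nodal, had 3.83 and 5.81 CPM in d6_Eff, against 0.174 and 0.718 CPM in d6_Ineff (log2 fold change 3.30 ± 0.43, adjusted p = 6.36e-04), with a mean of 1184 CPM in iPSC. Dppa5a averaged 5.90 CPM in d6_Eff, 0.507 CPM in d6_Ineff and 4382 CPM in iPSC. Alpl, the alkaline phosphatase used to stain stem cell colonies, was further along, with 61.4 and 68.4 CPM in d6_Eff, against 9.79 and 13.6 CPM in d6_Ineff (log2 fold change 2.47 ± 0.28, adjusted p = 3.11e-04) and 152 CPM in iPSC. Zfp42, Klf2, Tfcp2l1 and L1td1 were not called, Dppa4 had no counts on day 6, and none of 11 early lineage and primed epiblast genes tested was called. Without any 1 day 6 library, 8 to 11 of the factors and 7 to 9 of the other markers rose.

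The 4 pluripotency genes that fell went against the rest of their lists. Esrrb, a naive pluripotency factor, had 2.49 and 3.64 CPM in d6_Eff, against 13.4 and 13.5 CPM in d6_Ineff (log2 fold change -2.14 ± 0.33, adjusted p = 0.00166). Upp1, a uridine phosphorylase gene high in stem cells, had 2.09 and 1.29 CPM in d6_Eff, against 20.05 and 25.2 CPM in d6_Ineff (log2 fold change -3.72 ± 0.36, adjusted p = 1.49e-04). Their iPSC means were 599 and 807 CPM, so that in both genes the d6_Ineff libraries lay between those of d6_Eff and of iPSC. Tbx3 and the Nodal inhibitor gene Lefty1 fell by -3.31 and -1.64, and both calls ended in several fits that left out 1 library (highest adjusted p of 0.233 and 0.264).

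Cell cycle genes were higher in d6_Eff by small amounts. Of 30 genes of DNA replication and G1/S, 17 rose and none fell (median 0.89). Of 30 mitosis and G2/M genes 13 rose and none fell (median 0.80), against 5.38% higher genes in all. Mcm5, a subunit of the replicative helicase, had 346 and 386 CPM in d6_Eff, against 144 and 146 CPM in d6_Ineff (log2 fold change 1.34 ± 0.16, adjusted p = 4.07e-04). Ccnb1, the mitotic cyclin B1, had 199 and 168 CPM in d6_Eff, against 86.9 and 88.2 CPM in d6_Ineff (log2 fold change 1.06 ± 0.17, adjusted p = 0.00201). Leaving out a day 6 library gave 9 to 12 higher replication genes and 5 or 6 mitotic ones, whereas leaving out MEF replicate 2 gave 25 and 28.

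Inhibitors of the cell cycle and p53 targets fell in 10 of 29 cases, against 9.25% of all genes, and 1 rose. Without d6_Eff replicate 2 or d6_Ineff replicate 1, 6 fell. Cdkn1c, an imprinted inhibitor of cyclin-dependent kinases, had 23.1 and 18.4 CPM in d6_Eff, against 267 and 271 CPM in d6_Ineff (log2 fold change -3.69 ± 0.22, adjusted p = 1.90e-05). The d6_Eff libraries were close to the iPSC mean of 15.4 CPM, and the d6_Ineff libraries were above the MEF mean of 57.3 CPM. The inhibitors Cdkn2b, Cdkn2a and Cdkn1a fell by log2 fold changes of -1.87, -1.002 and -0.72. The D cyclins Ccnd2, Ccnd1 and Ccnd3, which drive the cycle and stand in the same list, fell by -1.62, -1.30 and -0.92. The member that rose was Trp53 itself, by 0.67 (adjusted p = 0.0311), a call that ended without any 1 of the day 6 libraries.

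Of 24 imprinted genes tested, 12 fell and none rose (median -1.17), against 9.25% lower genes in all. H19, a non-coding RNA of the Igf2 locus, had 3476 and 2760.2 CPM in d6_Eff, against 10271 and 10591 CPM in d6_Ineff (log2 fold change -1.74 ± 0.28, adjusted p = 0.00230). Igf2, a growth factor gene, had 1354 and 1107 CPM in d6_Eff, against 4262 and 5103 CPM in d6_Ineff (log2 fold change -1.93 ± 0.32, adjusted p = 0.00273). Both transcripts were far above their iPSC means of 26.0 and 7.27 CPM in every day 6 library. Ndn, Slc38a4, Plagl1 and Peg3 fell by -2.25, -1.80, -1.75 and -1.69. Without d6_Eff replicate 2, 5 imprinted genes fell.

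Secreted and inflammatory factors fell in 12 of 29 cases and rose in 1, against 9.25% lower and 5.38% higher genes in all. Igfbp3, a carrier of insulin-like growth factors, had 181 and 155 CPM in d6_Eff, against 862 and 824 CPM in d6_Ineff (log2 fold change -2.33 ± 0.24, adjusted p = 1.93e-04), and the chemokine gene Ccl2 fell by -3.24. The gene that rose was the Wnt antagonist gene Sfrp1, by 1.18, and its call ended without any 1 of the day 6 libraries. Interferon response genes fell in 4 of 29 cases (Irf1, Tap1, Irf9 and H2-D1) and AP-1 and immediate early genes in 6 of 23, with none higher in either list, against 9.25% of all genes. Without any 1 day 6 library 2 or 3 interferon genes and 2 to 5 AP-1 genes fell, and the interferon count is near the share of all genes. Irf1 had 3.34 and 3.47 CPM in d6_Eff, against 12.1 and 9.73 CPM in d6_Ineff (adjusted p = 0.00222), and the call of Irf9 ended without any 1 of the day 6 libraries. Fos, a subunit of AP-1, fell by -1.87 and Cebpd by -1.43, while Jun, Junb and Jund were not called.

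Of 33 Polycomb and histone modifier genes 7 rose and 1 fell, against 5.38% higher and 9.25% lower genes in all, and 4 or 5 rose without any 1 day 6 library. Ezh2, the Polycomb methyltransferase, had 205 and 171 CPM in d6_Eff, against 76.5 and 75.02 CPM in d6_Ineff (log2 fold change 1.31 ± 0.17, adjusted p = 7.03e-04), and Suv39h2 and Wdr5 rose by 1.23 and 1.11. Of 18 DNA methylation genes Uhrf1 rose by 1.45 and Zbtb4 fell by -1.65. Among 23 glycolysis genes Slc16a1 rose and Aldoc and Eno2 fell, and among 34 oxidative phosphorylation genes Cyc1 alone was called, at a log2 fold change of 0.63. Both metabolic counts are near or under the 14.6% of all genes. The calls of Zbtb4, Slc16a1 and Cyc1 ended without any 1 of the day 6 libraries, and that of Eno2 without d6_Ineff replicate 2 or either d6_Eff library. Of 30 Hox genes tested 4 fell and none rose, led by Hoxa13, near the 9.25% of all genes, and of 26 germline genes Rhox6, Prdm14 and Tfap2c rose, against 5.38% of all genes. Without any 1 day 6 library 1 to 3 Hox genes fell and 1 to 3 germline genes rose. The calls of Hoxc10, Hoxd13 and Prdm14 ended without d6_Ineff replicate 1, among others.

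Within the Ly6 family the gate gene was not alone. Ly6c1, a neighbour of Ly6a in sequence, had 1.02 and 0.529 CPM in d6_Eff, against 9.44 and 18.5 CPM in d6_Ineff (log2 fold change -4.13 ± 0.51, adjusted p = 6.49e-04), and Ly6e fell by -0.94, a call that ended without d6_Ineff replicate 1 or d6_Eff replicate 2. Ly6d went the other way, with 20.4 and 28.0 CPM in d6_Eff, against 2.72 and 2.39 CPM in d6_Ineff (log2 fold change 3.24 ± 0.68, adjusted p = 0.0135), and it had no counts in MEF or iPSC. The call of Ly6d ended without any 1 of the day 6 libraries. Reads that match near copies in this family equally well were not counted for any gene, so the levels of Ly6a and Ly6c1 are uncertain to that degree.

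Markers of other cell types were looked at because a sort can carry other cells, and their counts stand beside 5.38% higher and 9.25% lower genes in all. The single lower genes among leukocyte, skeletal muscle, and adipocyte and chondrocyte markers are near that share. Of 7 leukocyte genes tested, Laptm5 fell, with 198 and 201 CPM in d6_Eff, against 474 and 484 CPM in d6_Ineff. Ptprc and Adgre1, which define leukocytes and macrophages, had no counts in any day 6 library, and the summed list level was 207 to 210.0 CPM in d6_Eff and 482 to 492 CPM in d6_Ineff. Of 11 endothelial genes, Kdr, Pecam1, Eng and Tek fell and Egfl7 rose, with a summed level of 127 to 133 CPM in d6_Eff and 219.9 to 235 CPM in d6_Ineff. Kdr, the VEGF receptor gene, had 0.802 and 0.235 CPM in d6_Eff, against 17.2 and 11.7 CPM in d6_Ineff. Without d6_Eff replicate 2 no endothelial gene was called. Of 10 keratinocyte genes Sfn, Col17a1 and Itga6 rose and Lama3 fell, with a summed level of 417 to 519.9 CPM in d6_Eff and 424 to 454 CPM in d6_Ineff. The epidermal genes Krt5, Krt15, Krt1, Ivl and Dsg3 had no counts in the day 6 libraries. Of 14 neural and glial genes Olig1, Olig2 and Tubb3 rose, the first at 2.72 and 2.17 CPM in d6_Eff and no counts in d6_Ineff, with a summed level of 235 to 247 CPM in d6_Eff and 216 to 254 CPM in d6_Ineff. Of 7 skeletal muscle genes Des rose and Acta1 fell (summed level 15.98 to 17.1 CPM in d6_Eff and 10.1 to 10.9 CPM in d6_Ineff), and of 11 adipocyte and chondrocyte genes Cebpa fell (16.2 to 20.8 CPM in d6_Eff and 55.0 to 58.1 CPM in d6_Ineff). Calls of Col17a1, Olig2, Des and Acta1 ended in at least 1 fit without a day 6 library. The part of other cell types in the differences above was not tested.

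The day 6 difference was then placed beside the difference between the end points, iPSC and MEF, whose fold changes use none of the day 6 libraries, although all groups share 1 estimate of the spread. Of the 873 genes higher in d6_Eff, 695 (79.6%) were also higher in iPSC than in MEF, against 26.0% of all genes (52.7% were called in either direction), and 44 (5.04%) were lower in iPSC. The 695 made up 16.5% of the 4221 genes higher in iPSC. Of the 1502 genes lower in d6_Eff, 1115 (74.2%) were lower in iPSC than in MEF, against 26.7% of all genes, and 146 (9.72%) were higher in iPSC. The 1115 made up 25.7% of the 4336 genes lower in iPSC. The counts are a description with no test of the overlap.

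**Figure D4:**
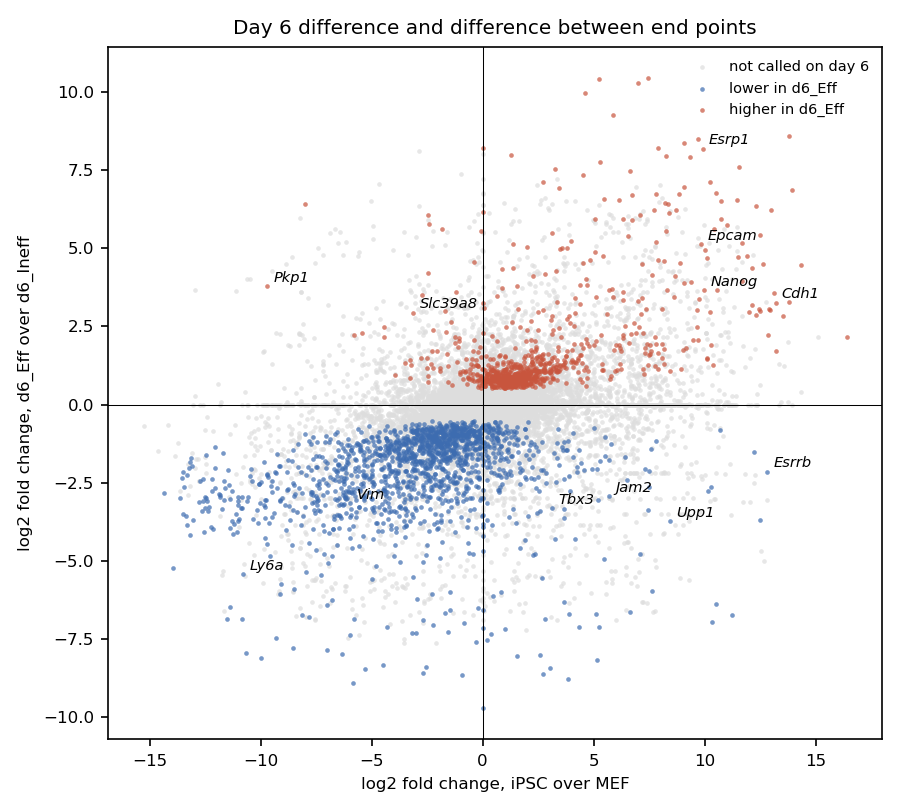
Log2 fold change of d6_Eff over d6_Ineff (y axis) against that of iPSC over MEF (x axis) for 16240 genes, with genes higher in d6_Eff in red and lower in blue. Most red points lie right of 0 and most blue points left of 0, while Pkp1 and Slc39a8 lie upper left and Esrrb, Upp1, Jam2 and Tbx3 lower right.

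The genes that went against the end points are named here after their values were seen. Pkp1, a plakophilin of desmosomes, had 17.3 and 21.8 CPM in d6_Eff, against 1.22 and 1.56 CPM in d6_Ineff, and had no counts in iPSC and a mean of 5.23 CPM in MEF. Slc39a8, a zinc and manganese importer gene, had 55.3 and 63.8 CPM in d6_Eff, against 6.49 and 8.97 CPM in d6_Ineff, with means of 0.728 CPM in iPSC and 6.61 CPM in MEF. Jam2, a junctional adhesion molecule gene, had 13.1 and 9.81 CPM in d6_Eff, against 72.0 and 101 CPM in d6_Ineff, with means of 143 CPM in iPSC and 2.61 CPM in MEF. Pdgfb, a growth factor gene, had 1.203 and 1.94 CPM in d6_Eff, against 34.4 and 28.7 CPM in d6_Ineff, with means of 16.1 CPM in iPSC and 4.12 CPM in MEF. The first 2 genes stood above both end points in d6_Eff, and the last 2 were low there though iPSC expressed them.

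Some called genes had levels above both end points. Both d6_Eff libraries lay above every MEF and iPSC library in 266 (30.5%) of the 873 genes higher in d6_Eff. The share over all genes tested was 14.5%. Both d6_Ineff libraries lay above every MEF and iPSC library in 483 (32.2%) of the 1502 genes lower in d6_Eff, against 14.9% of all genes tested. The genes were called for being high in that population, which favours such counts, so they are a description, and day 3 was not part of them. Col17a1, a hemidesmosome collagen, was one of the first kind, with 46.8 and 73.5 CPM in d6_Eff, against 12.3 and 16.4 CPM in d6_Ineff, 0.338 CPM in iPSC and 0.310 CPM in MEF.

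On day 3 the populations were closer. Of 16240 genes, 65 (0.400%) were called between d3_Eff and d3_Ineff, 26 (0.160%) higher and 39 (0.240%) lower. The gates differ between the days, CD73 on day 3 and EpCAM on day 6, so a change between days cannot be told apart from the change of gate. Of the 39 genes lower in d3_Eff, 38 (97.4%) were also lower in d6_Eff, against 9.25% of all genes, the exception being Tagln2, and they made up 2.53% of the 1502. The 38 include Ly6a, which was part of the gate on both days. Of the 26 genes higher in d3_Eff, 14 (53.8%) were also higher in d6_Eff, against 5.38% of all genes (1.60% of the 873), 4 were lower and 8 were not called. The 4 that turned were Slc7a11, Acsbg1, Elmo1 and Unc5c.

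The difference between the 2 days was tested gene by gene in the same fit. It called 225 genes (1.39%), 48 (0.296%) with a more positive and 177 (1.09%) with a more negative log2 fold change on day 6 than on day 3. Cdh1 differed by 3.26 ± 0.25 on day 6 and by -0.07 on day 3 (difference 3.33, adjusted p = 0.00231). Esrp1 differed by 8.19 on day 6 and by -0.72 on day 3 (difference 8.91, adjusted p = 0.00156). Vim differed by -3.16 on day 6 and by -0.67 on day 3 (difference -2.49, adjusted p = 0.00663), and Twist1 by -2.48 on day 6 and 0.17 on day 3 (difference -2.65, adjusted p = 0.0132). Nt5e, the day 3 gate gene, differed by 0.73 on day 6 and by 3.48 on day 3 (difference -2.75, adjusted p = 0.0194). The count depended on single libraries: it was 10 to 127 without 1 of the day 3 or day 6 libraries and 1297 to 1349 without a MEF library.

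**Figure D5:**
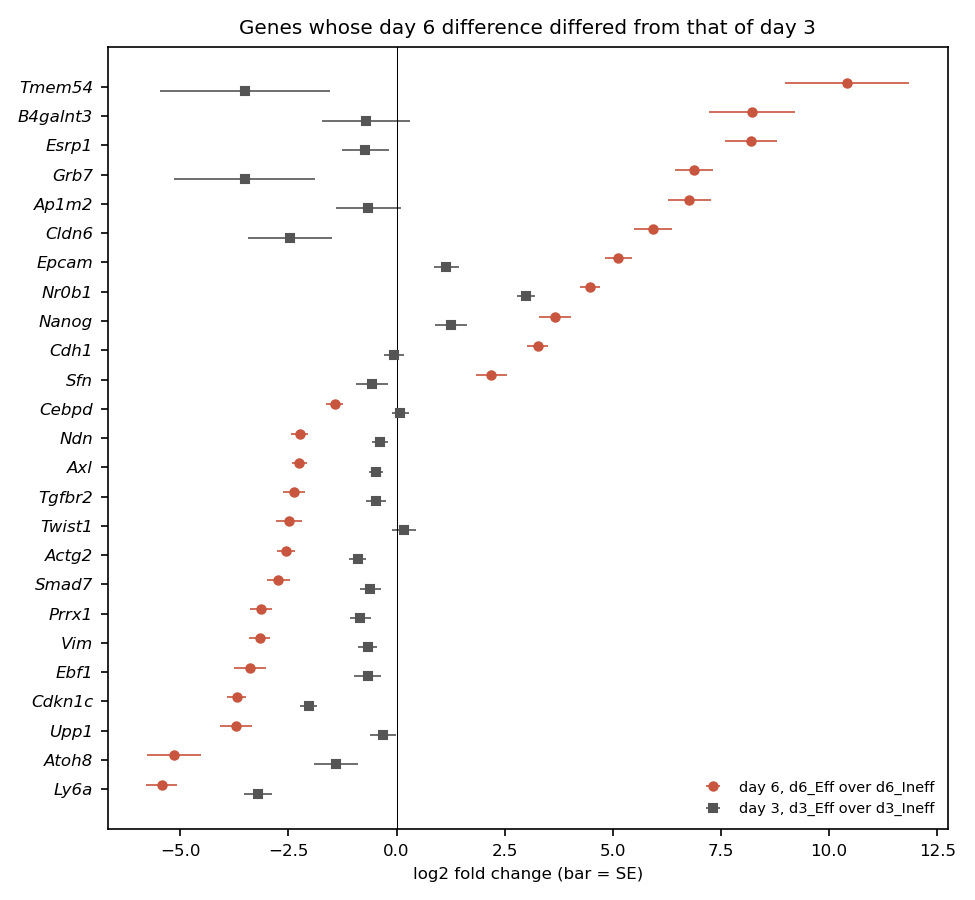
Log2 fold change with its SE on day 6 (d6_Eff over d6_Ineff, circles) and day 3 (d3_Eff over d3_Ineff, squares) for the 25 described genes that were called on day 6 and whose day 6 difference differed from that of day 3. The circles lie further from 0 than the squares in every gene shown, and the values of Tmem54 and Grb7 rest on groups with no counts in some libraries. Epcam and Ly6a are gate genes.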

How the data were processed

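The data are 12 tables of raw gene counts, 1 per library, which the authors deposited. Per the labels' protocols, poly-A RNA from sorted cells was made into libraries with a strand-marking kit, and the names of the deposited tables say that strand was not used in counting. Per the submitters' processing notes the tools were STAR 2.3.0, Picard 1.100 and HTSeq 0.6.0, with the build mm9, and which gene annotation was counted is not stated there. Names came from GENCODE M21, a later annotation, which gave a symbol to 32860 (87.4%) of 37583 identifiers. Overlaps between genes on opposite strands were taken from its exon coordinates. Promoter windows are RefSeq's, on GRCm38.p6.

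Counts that named no gene were left out of library sizes. Libraries held 9284060 to 22763548 gene counts. Genes with enough counts for edgeR's filter by group (16240) were scaled by TMM and fitted in edgeR 4.0.16 (R 4.3.3) by robust quasi-likelihood with 1 mean per group over all 12 libraries, so that the groups share 1 estimate of the spread. A gene counted as called below 0.05 after Benjamini-Hochberg adjustment over all genes tested. SEs were derived from each log2 fold change and its F statistic. CPM values were computed from the TMM-scaled sizes. Fold bounds use a floor of 3 counts over the group. limma 3.58.1 was loaded by edgeR, and DESeq2 1.42.0 served as an alternative. On simulated data for d6_Eff against d6_Ineff with 16240 genes, 24 of 100 2-fold and 93 of 100 4-fold changes were called, with 8 false calls.

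The genes named are the 12 largest called changes in each direction (every library of the higher group at 5 CPM or more and above every library of the lower one; small RNAs, pseudogenes, predicted genes and those of ribosomal proteins left out), up to 3 called members with the smallest adjusted p in each direction of each of the 33 lists, and the gate and reprogramming genes; other members stand in list counts or as single values, and genes against the end points were picked after their values were seen. Members and lists were chosen with earlier results of these data known. Of 763 list entries 9 matched no identifier. Alternatives were other size factors, no filter on low counts, DESeq2, the compared libraries alone, the replicate number as a block, a 2-fold minimum, genes without an opposite-strand partner, and each library left out.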

Additional observations from a re-analysis of the deposited data

Results flagged for a closer look

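For 25 of the genes named, the day 6 difference between d6_Eff and d6_Ineff differed from the day 3 difference between d3_Eff and d3_Ineff (edgeR interaction, adjusted p under 0.05 over all genes). Values here are day 6 minus day 3 differences of log2 fold changes. The gates differ between the days, so the change of day and the change of gate cannot be told apart.

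Of the 25 differences 11 were positive. They were 13.92 for Tmem54, 10.38 for Grb7, 8.93 for B4galnt3, 8.91 for Esrp1, 8.38 for Cldn6 and 7.42 for Ap1m2. Tmem54 and Grb7 had no counts in d3_Eff and 3 in d3_Ineff, and B4galnt3 held 1 count in d6_Ineff, so that the size of their differences depends on the prior count of the fit. Among genes with more counts, the difference was 3.98 for Epcam, 3.33 for Cdh1, 2.76 for Sfn, 2.39 for Nanog and 1.48 for Nr0b1. Epcam was part of the gate on day 6 only, so its difference follows from the sort and is not a finding.

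The other differences were negative. They were -2.72 for Ebf1, -2.65 for Twist1, -2.29 for Prrx1, -1.90 for Tgfbr2, -2.13 for Smad7 and -1.78 for Axl. Vim had -2.49 and Actg2 had -1.66. The differences were -3.75 for Atoh8, -3.40 for Upp1, -2.23 for Ly6a, -1.86 for Ndn, -1.66 for Cdkn1c and -1.52 for Cebpd. Ly6a was part of the gate on both days, so its value is not a separate finding.

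Leaving out 1 day 3 or day 6 library kept 3 to 17 of the 25 calls, the fewest without d3_Ineff replicate 1 and the most without d6_Eff replicate 1. No difference changed sign in those fits.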

How the results depend on the processing

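The full fit called 873 genes higher and 1502 lower in d6_Eff than in d6_Ineff, and 225 whose day 6 difference differed from that of day 3. With the 4 compared libraries alone, 2502 were higher and 2640 lower, and the difference between days, from its 8 libraries, called 1260. The difference between days called 832 genes with no filter on low counts, 833 with DESeq2 and 141 without genes that have an opposite-strand partner, which was also chosen after seeing the data. A 2-fold minimum left 461 higher genes. Without MEF replicate 2 and d6_Eff replicate 2 together, chosen after seeing the data, 1466 were higher, 1922 lower and 932 differed between days. Leaving out each library in turn gave 260 to 2162 higher, 563 to 2693 lower and 10 to 1349 differing genes, the highest counts without a MEF library and the lowest of the day 6 counts without a day 6 library. The causes were not tested. Of 111 named genes called, 73 were called in every alternative run, 35 lost the call without at least 1 day 6 library, and Acta2, Masp1 and Pappa lost it only in the fit of 4 libraries (adjusted p of 0.0511 for Acta2, 0.0879 for Masp1 and higher still for Pappa). No result reversed.

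Over all genes tested, the deviations of same-numbered libraries correlated at -0.0778 between d6_Eff and d6_Ineff. Over all pairs of groups the range was -0.101 to 0.213. Low counts enter these values, so they cannot settle whether same-numbered samples were paired. With the replicate block 817 genes were higher, 1504 lower and 214 differed between days.

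With 2 libraries per group, changes near 2-fold are often missed, and 24.1% of the uniquely placed reads of d6_Eff replicate 2 fell outside genes.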
